A study of Homo sapiens with 12 samples.

Results

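The RNA levels of 10 genes that stand between the brakes of the cell cycle and its transcription programme were compared across 4 lines of MIA PaCa-2, a human pancreatic carcinoma cell line. The genes were CDKN1A, CDKN1B, CDKN1C, CDKN2A, CDKN2B, CDKN2C, RB1, E2F1, E2F2 and E2F8, taken by symbol from the 63086 genes of the deposited table, and all 10 were found there. The study edited exon 4 of TIMP1, which encodes an inhibitor of matrix metalloproteinases, to ask which transcripts of these cells depend on it. WT cells were unmodified. CRISPR Control cells had been edited with CRISPR-Cas9, a nuclease led by an RNA to a chosen site in DNA. They carried a silent point mutation, which leaves the amino acid sequence of TIMP-1 unaltered. TIMP1 KO 1 and TIMP1 KO 2 were knockout lines made from the same parent with guides to that exon and carrying frameshifts. Each line had 3 libraries, named in the sample titles as biological replicates, of cells grown in RPMI medium to the same confluency, with no other treatment. Each knockout is represented by a single edited line, so the edit cannot be told apart from other differences of the cells that line was grown from. WT and CRISPR Control are called the competent lines, and KO 1 and KO 2 the deficient lines.

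Cyclin-dependent kinases (CDKs), switched on by cyclins, phosphorylate the retinoblastoma protein RB, which in its unphosphorylated form holds E2F transcription factors inactive. Freed E2F proteins switch on genes for DNA replication. The CIP/KIP inhibitors p21, p27 and p57 (CDKN1A, CDKN1B and CDKN1C) act mainly on CDK2 complexes, and the INK4 inhibitors p16, p15 and p18 (CDKN2A, CDKN2B and CDKN2C) bind CDK4 and CDK6. E2F1 and E2F2 are activators. E2F8 is a repressor that is itself switched on by E2F activators. Loss of CDKN2A is among the most frequent lesions of pancreatic carcinoma, and MIA PaCa-2 is known to lack it.

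Read counts per gene had been divided by a size factor per library, and these values are called normalised counts here. Libraries held between 26908701 and 36093563 reads in genes. TIMP1 itself, whose level per gene does not show a frameshift, was at 3553 ± 274 in WT and 2690.4 ± 357 in CRISPR Control, against 1599.6 ± 32.8 and 1161 ± 28.8 (SD, n = 3 each) in KO 1 and KO 2, and fell by 1.18 on the log2 scale in the deficient lines (limma adjusted p = 6.03e-12). The summed 5 epithelial markers, mostly the keratins KRT8 and KRT18, ran from 193160 to 216434 in WT, 56497 to 72652 in CRISPR Control, 215548 to 223401 in KO 1 and 174138 to 198045 in KO 2. The summed 3 mesenchymal markers, mostly vimentin, ran from 71427 to 74457 in WT and 53285 to 64874 in CRISPR Control. They ran from 93213 to 96509 in KO 1 and 71208 to 77756 in KO 2. Both sums were lowest in CRISPR Control, and those of KO 2 overlapped WT. Within these lists the markers went apart in the deficient lines, with KRT19 (2.09), KRT8 (0.67), KRT18 (0.55), VIM (0.36) and ZEB1 (0.24) higher and CDH1 (-3.65), CDH2 (-2.06) and EPCAM (-0.21) lower on the log2 scale, all called. Of the leukocyte markers, CD14 averaged 36.2 and 36.5 in WT and CRISPR Control but 83.0 and 161 in KO 1 and KO 2, while the defining markers PTPRC and CD3E stayed at or below 7.46. The summed 4 fibroblast markers ran from 302 to 357 in KO 2, most of it PDGFRA, and from 30.5 to 70.8 in the other lines, with the defining markers DCN and LUM at or below 5.26. The summed 3 endothelial markers did not exceed 32.3. The part of these marker genes in the results was not tested.

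Of the 10 genes, 8 had a mean of at least 10 normalised counts over the 12 libraries and were tested, and CDKN2A and CDKN2B had 0 reads in every library. All tests are limma on log2(normalised count + 1) with p adjusted over the 15987 genes tested and called at an adjusted p under 0.05. The background was high, since the lines differed in a large share of all genes. Between deficient and competent lines 65.9% of tested genes were called, 32.9% higher and 33% lower in the deficient lines. Of the 8 genes, 2 were higher, CDKN1A by 1.36 and CDKN1B by 0.52 on the log2 scale, and 4 were lower, E2F1 (-1.003), E2F8 (-0.88), E2F2 (-0.76) and CDKN2C (-0.14). RB1 and CDKN1C were not called. The comparisons against WT share the WT libraries, and those against CRISPR Control share its libraries, so their values are set side by side without a measure of agreement. In bulk RNA, fewer cells that express a gene and less RNA per cell cannot be told apart.

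**Figure D1:**
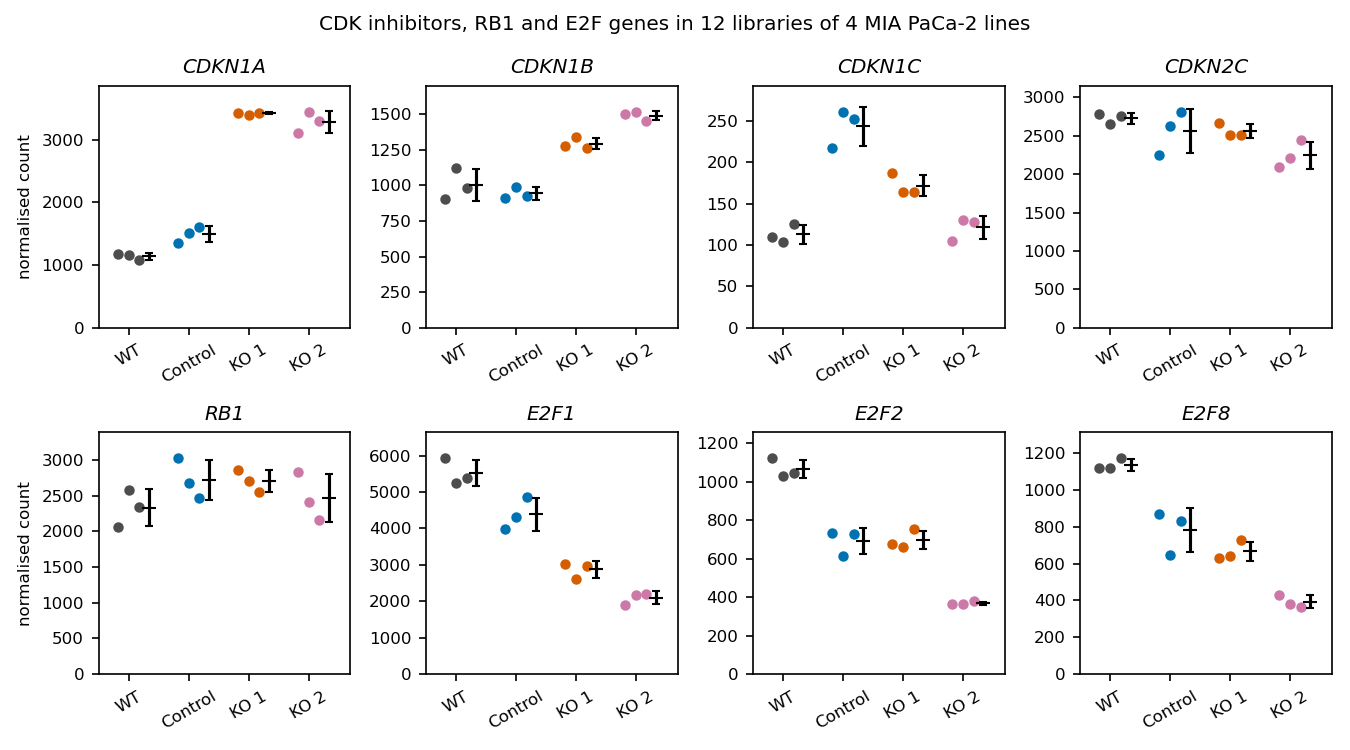
Normalised counts (linear axes from 0) of the 8 detected genes in the 12 libraries, with 3 points per line and, beside them, the mean ± SD. CDKN1A and CDKN1B lie above the competent libraries in all 6 deficient libraries, E2F1 lies below them, and E2F2 and E2F8 are lowest in the 3 libraries of KO 2.

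CDKN1A, which encodes p21, was the CDK inhibitor that rose most. It lies on chromosome 6 at 36676460 to 36687337 (plus strand, GRCh38), and is listed in the files as ENSG00000124762.14. The WT libraries held 1183, 1160.1 and 1078 normalised counts, and those of CRISPR Control 1351, 1518 and 1614. KO 1 held 3430.1, 3401 and 3427, and KO 2 held 3103, 3445 and 3300.2. Every deficient library was thus above every competent library by a wide margin, and the CRISPR Control libraries were all above those of WT. As a share of the WT mean, KO 1 held 299.9%, KO 2 288% and CRISPR Control 131%. As log2 fold changes against WT these were 1.58 (SE 0.08, limma adjusted p = 8.81e-12) in KO 1, 1.52 (SE 0.08, limma adjusted p = 7.17e-12) in KO 2 and 0.39 (SE 0.08, limma adjusted p = 0.00033) in CRISPR Control. Against CRISPR Control the log2 fold changes were 1.20 in KO 1 and 1.14 in KO 2 (limma adjusted p = 9.95e-11 and 1.91e-10). KO 2 and KO 1 differed by -0.06 (95% interval -0.22 to 0.10, limma adjusted p = 0.571), a difference whose sign turned with equal library totals. Being higher in KO 1 than in WT was called for 18% of all tested genes, and in KO 2 for 27.1%.

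CDKN1B, which encodes p27, a brake on the entry into S phase, rose less. Its gene (ENSG00000111276.12) lies on chromosome 12 at 12685498 to 12722369, on the plus strand. The WT libraries held 903, 1125 and 979 normalised counts and those of CRISPR Control 910.4, 992 and 927. KO 1 held 1277, 1340.1 and 1263, and KO 2 held 1503, 1516 and 1452. No competent library reached a deficient one, and the competent lines overlapped each other. Relative to WT, the log2 change was 0.37 (SE 0.08, limma adjusted p = 0.00175) in KO 1, 0.58 (SE 0.08, limma adjusted p = 1.06e-05) in KO 2 and -0.08 (SE 0.08, limma adjusted p = 0.424) in CRISPR Control. CDKN1B alone among the 8 tested genes was called against WT with the same sign in KO 1 and KO 2 and was not called in CRISPR Control, a pattern met by 10.2% of all tested genes. Against CRISPR Control, KO 1 was higher by 0.46 and KO 2 by 0.66 (limma adjusted p = 0.000106 and 1.16e-06). KO 2 lay above KO 1 by 0.20 and missed the threshold (limma adjusted p = 0.0614). That difference was called in 6 alternatives, among them equal library totals, where it was 0.31 (limma adjusted p = 0.00955).

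The ubiquitin ligase SCF with its subunit SKP2 marks the p27 protein for destruction, with CKS1B as cofactor. Of its 5 genes, 3 were lower in the deficient lines and none higher, where 33% of all tested genes were lower. The median log2 fold change was -0.34 against 0.00 for all tested genes. SKP2 averaged 791 in WT and 841 in CRISPR Control, and 548 in KO 1 and 407 in KO 2. Its log2 fold change in the deficient lines was -0.78 (limma adjusted p = 2.92e-09). CKS1B changed by -0.77 and the scaffold CUL1 by -0.34 (limma adjusted p = 1.54e-09 and 2.22e-06). These are RNA levels, and the p27 protein was not measured here.

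CDKN1C, which encodes p57 and is imprinted, was highest in the edited competent line. Its WT libraries held 109.8, 104 and 126 normalised counts, those of CRISPR Control 217, 261 and 253. KO 1 held 187, 164 and 164, and KO 2 held 105, 131 and 128. The CRISPR Control libraries stood above all others, those of KO 1 came next, and WT and KO 2 overlapped. On the log2 scale the change from WT was 1.10 (SE 0.14, limma adjusted p = 2.65e-06) in CRISPR Control, 0.60 (SE 0.14, limma adjusted p = 0.00239) in KO 1 and 0.10 (95% interval -0.19 to 0.39, limma adjusted p = 0.569) in KO 2. With CRISPR Control as the reference, KO 1 lay lower by -0.50 (limma adjusted p = 0.00459) and KO 2 by -1.001 (limma adjusted p = 4.06e-06). Between deficient and competent lines it changed by -0.20 and was not called (95% interval -0.41 to 0.01, limma adjusted p = 0.084), but it was called without CRISPR Control replicate 1 (-0.24, limma adjusted p = 0.0468) and after quantile normalization (-0.37, limma adjusted p = 0.00275). CDKN1C (ENSG00000129757.15) lies in a cluster of imprinted genes on chromosome 11 at 2883213 to 2885775 (GRCh38, minus strand). Of its 8 neighbours on the list, 3 were higher and 4 lower in the deficient lines, where 65.9% of all tested genes were called. The KO lines differed, with 6 of the 8 called higher in KO 2 than in KO 1 and 0 lower (median 0.58), against 38.2% of all tested genes called. CRISPR Control against WT called 4 higher and 2 lower, against 53.4%. H19, a maternally expressed noncoding RNA, averaged 8802 in WT and 91894 in CRISPR Control, but 525 in KO 1 and 1545 in KO 2. IGF2, the growth factor gene beside it, averaged 432, 897, 35.3 and 288 in the same order. PHLDA2 (-0.99) and KCNQ1 (-1.61) were also lower in the deficient lines, and SLC22A18 (1.04), KCNQ1OT1 (0.59) and CARS1 (0.17) were higher on the log2 scale, although CARS1 in CRISPR Control (6134) lay between KO 1 (4785) and KO 2 (6230.3). NAP1L4 changed by -0.10 and was not called (limma adjusted p = 0.075). H19, IGF2, PHLDA2, KCNQ1 and CARS1 had, like CDKN1C, a higher mean in CRISPR Control than in WT.

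Of the INK4 inhibitors CDKN2C, encoding p18, was the only member with reads, and lies on chromosome 1 at 50960745 to 50974634 (ENSG00000123080.12, plus strand). Among the competent lines CDKN2C held 2781, 2649 and 2753 normalised counts in WT and 2249, 2628 and 2811 in CRISPR Control. KO 1 held 2673, 2509 and 2504, and KO 2 held 2098, 2207 and 2443. The lines overlapped except that KO 2 lay wholly below WT and KO 1. KO 2 was lower than WT (log2 fold change -0.28, SE 0.08, limma adjusted p = 0.00786), and this was not called after quantile normalization (-0.19, limma adjusted p = 0.0528). Neither KO 1 (-0.09, 95% interval -0.26 to 0.08) nor CRISPR Control (-0.10, 95% interval -0.27 to 0.08) was called against WT, with limma adjusted p = 0.428 and 0.349. KO 2 was not called against CRISPR Control (-0.18, limma adjusted p = 0.0561) or KO 1 (-0.19, limma adjusted p = 0.0791), though each was called in some alternatives, among them without CRISPR Control replicate 1 (-0.28 and -0.19) and without KO 2 replicate 3 (-0.25 for both). Between deficient and competent lines the change was -0.14 (SE 0.06, limma adjusted p = 0.0462). That call was lost in 12 of 22 alternatives. It was not called without WT replicate 1, 2 or 3, CRISPR Control replicate 2 or 3, KO 1 replicate 2 or 3, or KO 2 replicate 1 or 2, with values from -0.15 to -0.10, nor with equal library totals (-0.08, limma adjusted p = 0.182), quantile normalization (-0.09) or no filter on low values.

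CDKN2A (p16) and CDKN2B (p15) had 0 reads in all 12 libraries. A count of 0 allows up to 3 reads per library, which is 2.49 to 3.56 normalised counts, and floors cover counting error only. CDKN2A (ENSG00000147889.18) lies on chromosome 9 at 21967752 to 21995301 and CDKN2B (ENSG00000147883.12) at 22002903 to 22009305 (GRCh38, minus strand). The noncoding genes CDKN2A-DT and CDKN2B-AS1 (ANRIL), which start at -28.4 kb and -1.16 kb from the CDKN2A start along the chromosome, also had 0 reads in each library. MTAP, an enzyme of adenine salvage that is often lost together with CDKN2A in tumours, had between 1 and 7 reads per library, with line means between 2.97 and 6.3 normalised counts. Transcripts were seen on both sides. KLHL9, which starts at -659.9 kb, averaged 491 in WT and 637 to 677 in the other lines. FOCAD, at -1337 kb, averaged 628 and 631 in WT and CRISPR Control but 971 and 1009 in KO 1 and KO 2, a log2 fold change of 0.65 in the deficient lines (limma adjusted p = 3.38e-08). DMRTA1, on the other side at 452 kb, had line means from 64.9 to 100.3 and was not called (-0.15, limma adjusted p = 0.423). HACD4 averaged 7.71 in WT and 55.3 in CRISPR Control, against 1.83 and 22.3 in KO 1 and KO 2, and MLLT3 17 and 18.9 against 34.8 and 39. Of the 5 neighbours tested, 3 were higher and 1 lower in the deficient lines, where 65.9% of all tested genes were called. Their median log2 fold change was 0.21, and it was -0.14 over 8 neighbours with no filter on low values. The call of KLHL9 (0.21, limma adjusted p = 0.0217) was lost after quantile normalization (0.14) and without WT replicate 3, CRISPR Control replicate 2, KO 1 replicate 2 or KO 2 replicate 2 (0.16 to 0.20). IFNE (at most 15 reads) and ELAVL2 (at most 4) were near the floor. The 4 genes without reads were the same in each line. RNA levels do not measure DNA copy number, which was not analysed here.

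**Figure D2:**
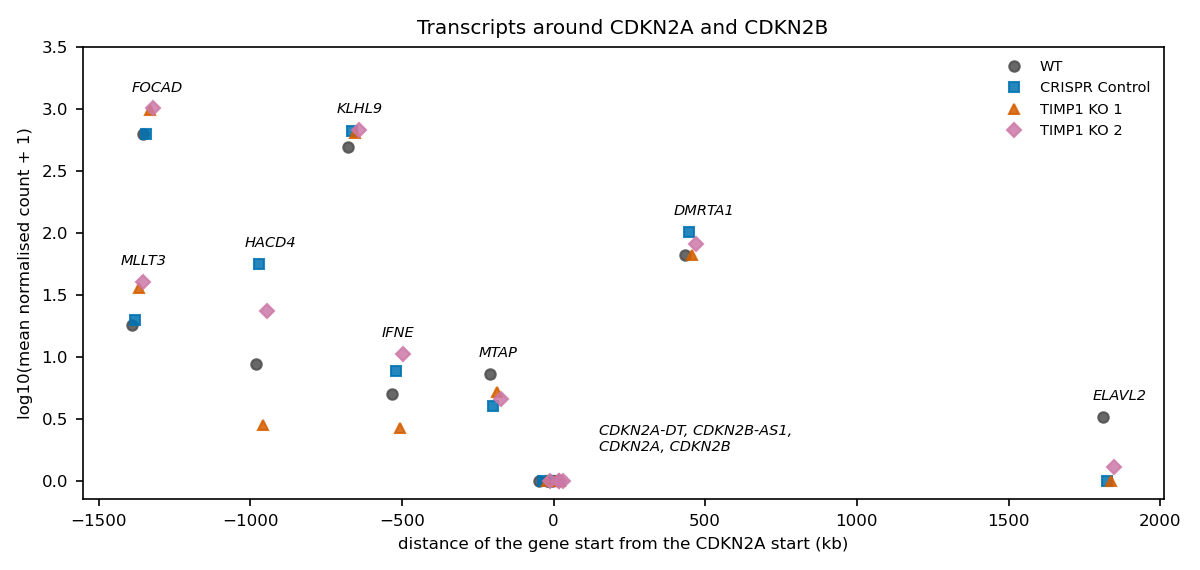
Mean normalised count of CDKN2A, CDKN2B and 10 neighbouring genes in each line (log10 of the mean + 1), against the distance of each gene's start from the CDKN2A start in kb, with points of the 4 lines shifted slightly so that all can be seen. CDKN2A, CDKN2B, CDKN2A-DT and CDKN2B-AS1 lie at 0 in every line, and FOCAD, KLHL9 and DMRTA1 on either side are detected in every line.

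RB1, the gene of the protein on which the CDKs act, was not called in any of the 7 comparisons. It lies on chromosome 13 at 48303744 to 48599436 (ENSG00000139687.17, plus strand). WT held 2060.0, 2578 and 2346 normalised counts of RB1 and CRISPR Control 3019.7, 2671 and 2468. KO 1 held 2861, 2705 and 2544, and KO 2 held 2824, 2403 and 2163. The 4 lines overlapped. On the log2 scale the change from WT was 0.22 in KO 1 (95% interval 0.01 to 0.43, limma adjusted p = 0.103), 0.08 in KO 2 (95% interval -0.14 to 0.29, limma adjusted p = 0.534) and 0.23 in CRISPR Control (95% interval 0.01 to 0.44, limma adjusted p = 0.0711). Between deficient and competent lines it changed by 0.04 (limma adjusted p = 0.671), with a 95% interval from -0.11 to 0.19, which as a fold is 0.924 to 1.14. With only the lines of the contrast in the fit, KO 1 against WT was called (0.22, limma adjusted p = 0.0212). Single libraries moved calls too. Without WT replicate 2, RB1 was called against WT in KO 1 (0.30, limma adjusted p = 0.0489) and also in CRISPR Control (0.30, limma adjusted p = 0.0312). Without CRISPR Control replicate 3 or KO 2 replicate 1, CRISPR Control against WT was called at 0.29 and 0.23, and without KO 2 replicate 1, so was KO 2 against CRISPR Control, at -0.25 (limma adjusted p = 0.042). Several genes overlap RB1, on its own strand and on the opposite one, and another gene overlaps CDKN2C on the opposite strand. The strand setting of the counting is not given in the sources used here.

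**Figure D3:**
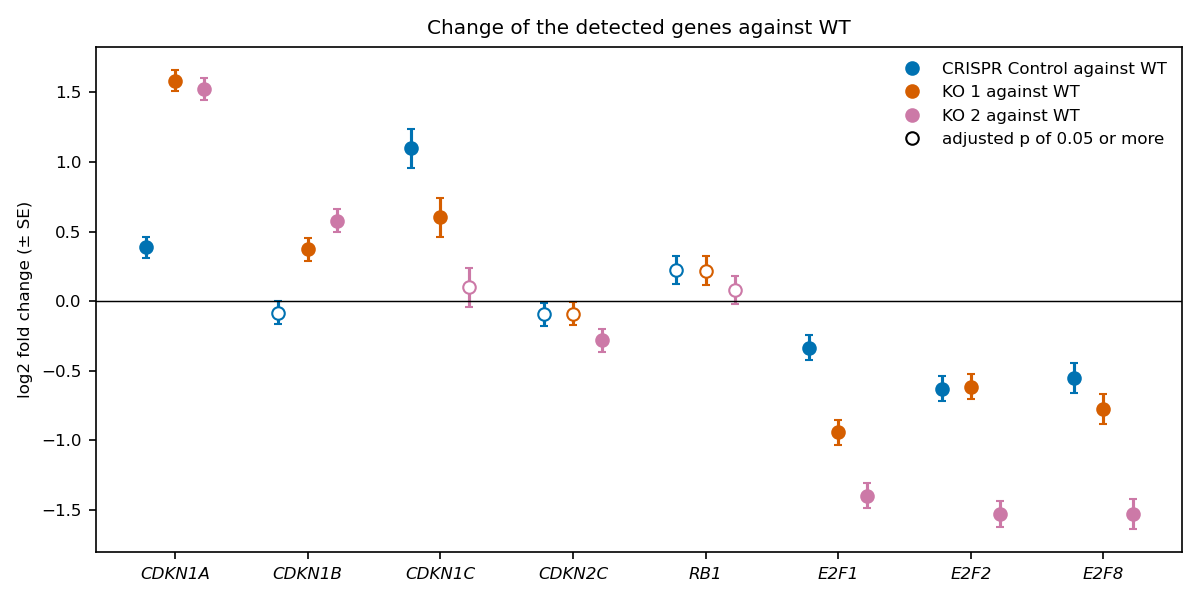
Log2 fold change (± SE) of the 8 tested genes in CRISPR Control, KO 1 and KO 2, each against the same 3 WT libraries, with open circles for an adjusted p of 0.05 or more. CDKN1A rises to 1.58 and 1.52 in the KO lines, and E2F1, E2F2 and E2F8 fall by 1.40 to 1.53 in KO 2 and by less in KO 1 and CRISPR Control.

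The promoters of E2F1 and E2F2 are shown because E2F genes are known to be targets of E2F proteins. Each line gives the 100 bases just before the start site (RefSeq, GRCh38.p14, 5′ to 3′ on the gene's strand), with matches to an E2F-type motif in capitals. E2F1 is on the minus strand, at chr20:33686386-33686485, and E2F2 on the minus strand, at chr1:23531234-23531333. The genes themselves span 33675477 to 33686385 on chromosome 20 for E2F1 (ENSG00000101412.13) and 23506438 to 23531233 on chromosome 1 for E2F2 (ENSG00000007968.7).
E2F1: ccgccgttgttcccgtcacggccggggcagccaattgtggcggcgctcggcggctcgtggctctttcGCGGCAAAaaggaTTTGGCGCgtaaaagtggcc
E2F2: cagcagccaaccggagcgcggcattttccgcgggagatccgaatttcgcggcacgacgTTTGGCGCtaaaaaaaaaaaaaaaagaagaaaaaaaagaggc
The motifs searched were TTTCCCGC, TTTGGCGC, TTTCGCGC and TTTGCCGC on both strands, in windows of 250 bases before to 50 bases after the start. E2F1 held TTTGGCGC from position -20 and, on the other strand, TTTGCCGC from -33, counted from the start site, and E2F2 held TTTGGCGC from -42. The windows of CDKN1A, CDKN1B, CDKN2A, CDKN2B and CDKN2C held none of these letters, where the RefSeq starts used for CDKN1A and CDKN1B lie inside the gene spans given above. The RB1 window in the table (48476200 to 48476499 on chromosome 13) lies within the gene, so the start of RB1 was not searched, and E2F8 and CDKN1C had no window there. Of all 35116 windows, 1164 (3.31%) held a match, and by gene 3.99% of 27305. Of the 31 listed E2F target genes that had a window, 22 (70.97%) held one. A match describes these letters and is not evidence of binding.

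All 3 E2F genes of the group were lower than WT in each edited line, CRISPR Control included, and lowest in KO 2. E2F1, the activator best known for driving entry into S phase, held 5922, 5244 and 5385 normalised counts in WT and 3972, 4326 and 4852 in CRISPR Control. The libraries of KO 1 held 3038, 2605 and 2980.5 and those of KO 2 1892, 2179.7 and 2212. No libraries of any pair of lines overlapped, so the lines stood in the order WT, CRISPR Control, KO 1 and KO 2. KO 1 held 52.1% and KO 2 38% of the mean of WT, and CRISPR Control 79.4%. E2F1 changed from WT, on the log2 scale, by -0.94 (SE 0.09, limma adjusted p = 1.12e-07) in KO 1, -1.40 (SE 0.09, limma adjusted p = 2.01e-10) in KO 2 and -0.33 (SE 0.09, limma adjusted p = 0.00377) in CRISPR Control. Against CRISPR Control it was -0.61 in KO 1 and -1.06 in KO 2 (limma adjusted p = 8.12e-06 and 3.97e-09), and KO 2 lay below KO 1 by -0.46 (limma adjusted p = 0.000449). Being lower than WT was called for 17.5% of all tested genes in KO 1 and for 27.9% in KO 2.

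E2F2, a second activator, separated KO 2 from the other edited lines. E2F2 held 1122, 1033 and 1045 normalised counts in the WT libraries and 732, 612 and 729.7 in those of CRISPR Control. KO 1 held 676, 663 and 754, and KO 2 held 363, 365 and 378. WT lay above and KO 2 below all other libraries, and CRISPR Control and KO 1 overlapped. Set against WT, its log2 change was -0.63 (SE 0.09, limma adjusted p = 1.44e-05) in CRISPR Control, -0.61 (SE 0.09, limma adjusted p = 3.8e-05) in KO 1 and -1.53 (SE 0.09, limma adjusted p = 1.03e-10) in KO 2. KO 1 differed from CRISPR Control by 0.02 (95% interval -0.18 to 0.21, limma adjusted p = 0.898), and KO 2 from KO 1 by -0.92 (limma adjusted p = 2.83e-07). The change of -0.76 between deficient and competent lines (limma adjusted p = 6.8e-09) thus combines a KO 1 not distinguished from CRISPR Control with a lower KO 2.

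E2F8, on chromosome 11 at 19224063 to 19241620 (ENSG00000129173.13, minus strand), had a like order. WT held 1118, 1116 and 1169.7 normalised counts and CRISPR Control 866, 645 and 829. KO 1 held 628, 641 and 727, and KO 2 held 432, 379.7 and 366. The WT libraries lay above and the KO 2 libraries below all others, while CRISPR Control and KO 1 overlapped. On the log2 scale E2F8 changed from WT by -0.55 (SE 0.11, limma adjusted p = 0.000304) in CRISPR Control, -0.77 (SE 0.11, limma adjusted p = 1.69e-05) in KO 1 and -1.53 (SE 0.11, limma adjusted p = 8.94e-10) in KO 2. KO 1 lay below CRISPR Control by -0.22 and was not called (limma adjusted p = 0.0835). It was called without CRISPR Control replicate 2, at -0.35 (limma adjusted p = 0.00478), and after quantile normalization. KO 2 lay below KO 1 by -0.76 (limma adjusted p = 1.82e-05).

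The pairs of lines can be read against their backgrounds. KO 1 against WT called 6 of the 8 genes, where 35.5% of all tested genes were called, and KO 2 against WT called 6, where 55% were. CRISPR Control against WT, with an unaltered TIMP-1 amino acid sequence but less TIMP1 RNA, called 5 of 8 against 53.4%. KO 1 against CRISPR Control called 4 of 8 against 63%, and KO 2 against CRISPR Control 6 against 67.7%. KO 2 against KO 1 called 4 of 8, all lower in KO 2, against 38.2%. The 6 deficient libraries lay wholly on 1 side of the 6 competent libraries for 3 of the 8 genes, CDKN1A, CDKN1B and E2F1, and for 24.7% of all tested genes. With so few genes these shares describe the group and do not set it apart.

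Levels of different genes can be compared only per length, taken here as all annotated exons of a gene merged. That length can exceed the expressed transcript, so levels and ranks per kb are approximate. Per kb of exon, E2F1 was the highest of the 10 genes in WT (2051 ± 133 normalised counts per kb) and CRISPR Control (1629 ± 165), and CDKN1A the highest in KO 1 (1141 ± 5.29) and KO 2 (1096 ± 57.3, SD, n = 3 each). CDKN1A stood at 381 ± 18.4 per kb in WT, so the ratio of the levels turned round between WT and the KO lines. CDKN2C ranked 2 in the competent and 3 in the deficient lines, at 745 to 904 per kb, and RB1 ranked 4 in each line, at 362 to 423. CDKN1C was the lowest gene with reads, at 45.6 to 98.2 per kb. In KO 1 the level of E2F1 (1069 ± 87.5) was within its SD of that of CDKN1A. On the opposite strand DINOL overlaps CDKN1A, GPR19 overlaps CDKN1B and CSRP3-AS1 overlaps E2F8. Reads from these overlaps may have been added or lost in the counting, which was not tested.

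The other E2F and RB family genes were mostly lower in the deficient lines or not called. Of 10, 6 were lower and 1 higher in the deficient lines, where 65.9% of all tested genes were called. The median log2 fold change was -0.17 (0.00 for all tested genes), and E2F7 was the higher gene (0.31). E2F5 (-0.77, SE 0.06) and E2F4 (-0.63, SE 0.05), both seen mainly as repressors with pocket proteins, were lower in the deficient lines (limma adjusted p = 4.4e-09 and 7.18e-09). Both were higher than WT in CRISPR Control, by 0.39 and 0.30 (limma adjusted p = 0.00135 and 0.00313), unlike E2F1, E2F2 and E2F8. TFDP1, the dimer partner of E2F proteins, and RBL1, the pocket protein p107, changed by -0.62 each (limma adjusted p = 7.96e-10 and 9.62e-07). Their line means differed in pattern. TFDP1 averaged 6684 in WT and 9384 in CRISPR Control, against 5564.5 in KO 1 and 4793 in KO 2. RBL1 averaged 1400, 1197, 1011 and 705 in the same order. E2F6 changed by -0.13, a call lost in 11 of 22 alternatives, equal library totals and both count tests included.

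E2F7, the repressor most like E2F8, went the other way in KO 2. WT held 772, 957 and 971 normalised counts of E2F7, CRISPR Control 855, 683 and 739.6, KO 1 796, 801 and 771, and KO 2 1408, 1337 and 1238. All KO 2 libraries were above all others, and the other 3 lines overlapped. KO 2 was higher than WT by 0.57 (SE 0.10, limma adjusted p = 0.000107) and than KO 1 by 0.75 (SE 0.10, limma adjusted p = 1.02e-05). KO 1 against WT was not called (-0.18, limma adjusted p = 0.176), but was without WT replicate 1 (-0.29, limma adjusted p = 0.0388). CRISPR Control was called lower than WT by a narrow margin (-0.24, limma adjusted p = 0.0495), and this was lost in most alternatives, among them the replicate block (limma adjusted p = 0.0615) and without WT replicate 2 or 3, CRISPR Control replicate 2 or 3, or any library of KO 1 or KO 2. In the same comparison of KO 2 with WT, E2F8 stood at -1.53.

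Among the kinases on which the inhibitors act, and their cyclins and activators, 11 of 14 were lower and 2 higher in the deficient lines. Their median log2 fold change was -0.58, where 65.9% of all tested genes were called. Against WT, 7 were lower and 2 higher in each KO line, with medians of -0.30 in KO 1 and -0.28 in KO 2. In CRISPR Control 1 was lower than WT and 6 were higher, with a median of 0.17. The shares of all tested genes called in KO 1, KO 2 and CRISPR Control against WT were 35.5%, 55% and 53.4%. CDC25A, a phosphatase that activates CDK2 and is an E2F target, averaged 969 in WT and 1284 in CRISPR Control, against 410.0 in KO 1 and 401 in KO 2 (-1.46 on the log2 scale, limma adjusted p = 8.65e-13). CDK2 changed by -0.66, CDK4 by -0.59 and CCNE1 by -0.69 (limma adjusted p = 1.94e-10, 1.38e-07 and 3.21e-08). CDK6 (0.43, limma adjusted p = 2.48e-05) and CDK7, a kinase that activates other CDKs (0.20, limma adjusted p = 0.00801), were higher. CDK7 averaged 973 in WT, and 1164 in KO 1, 1183 in CRISPR Control and 1311 in KO 2, with neither KO line called against CRISPR Control (limma adjusted p = 0.832 and 0.147). CDK6 was low in CRISPR Control (mean 3070.5), and WT, at 4825, lay between KO 2 (4620.4) and KO 1 (5797). CCND2, a D-type cyclin, averaged 187 in CRISPR Control, 27.6 in KO 2, 7.63 in WT and 1.54 in KO 1, where it was under the floor, so the size of its log2 fold change of -2.40 (limma adjusted p = 2.41e-06) depends on the added constant. CCND1, the main D-type cyclin by level, averaged 14589 in CRISPR Control but 9942 in WT, with KO 1 at 10975 and KO 2 at 10488. Neither KO line was called against WT (0.14 and 0.08, limma adjusted p = 0.0935 and 0.318), and both were lower than CRISPR Control (-0.41 and -0.48, limma adjusted p = 2.03e-05 and 2.94e-06). Between deficient and competent lines CCND1 changed by -0.17 (limma adjusted p = 0.00372), which was not called after quantile normalization (-0.08, limma adjusted p = 0.149).

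Genes known as targets of E2F were then looked at as a list. All 36 listed genes, which encode replication factors, nucleotide enzymes and the like, were lower in the deficient lines, with a median log2 fold change of -0.81 against 0.00 for all tested genes. Among all tested genes, 33% were called lower in that comparison. The fall of all 36 held in each of the 22 alternatives. Against WT 35 of 36 were lower in KO 1 (median -0.58) and 36 of 36 in KO 2 (median -1.12). The shares of all tested genes called lower there were 17.5% and 27.9%. Against CRISPR Control, the shares of all tested genes called lower were 34.4% in KO 2 and 31.3% in KO 1. There KO 2 was lower in 36 of 36 (median -0.98), and KO 1 in 30 (median -0.55), with 5 not called and 1 higher. That gene was LIG1, a DNA ligase of replication, at 1459 in KO 1 and 1221 in CRISPR Control (0.26, limma adjusted p = 0.00651). KO 2 was lower than KO 1 in 34 of 36, with a median of -0.56, where 20.1% of all tested genes were called lower. CRISPR Control was lower than WT in 13 and higher in 3, and 20 were not called (median -0.12), where 53.4% of all tested genes were called. GINS2, a part of the replicative helicase, had the largest decrease, with means of 1258 and 1414 in the competent lines and 609 and 401 in KO 1 and KO 2 (-1.43, SE 0.07, limma adjusted p = 2.8e-12). CDCA7 followed (-1.18, limma adjusted p = 4.06e-13). SLBP, which binds histone mRNA, and the checkpoint kinase CHEK1 changed least, both by -0.36 (limma adjusted p = 1.16e-05 and 4.74e-06), and SLBP was the gene not called in KO 1 against WT. The means of KO 2 lay below KO 1, and KO 1 below both competent lines, for 34 of the 36 (94.4%) and for 19.1% of all tested genes. That order is also the one of E2F1, E2F8 and TIMP1, while the mean of E2F2 in KO 1 (698) lay above that in CRISPR Control (691). Replication genes had been seen to be lower in these libraries before the list was written, so its direction is not independent evidence.

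**Figure D4:**
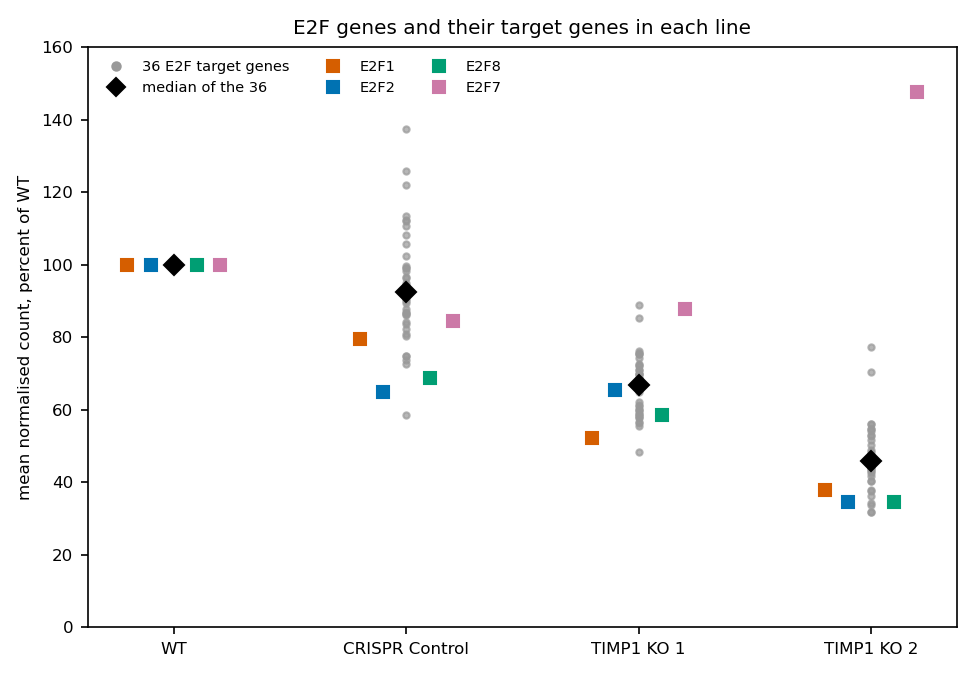
Mean normalised count in each line as a percent of the WT mean, for 36 E2F target genes (grey), their median (black) and 4 E2F genes (coloured squares, shifted sideways). The median of the target genes falls from 92.5% in CRISPR Control to 66.9% (KO 1) and 45.9% (KO 2), while E2F7 is at 148% in KO 2.

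Late cell cycle regulation by the MuvB complex, which forms the DREAM repressor with pocket proteins and E2F4 and an activator with B-MYB, was looked at with its partners. Of 7 genes, 4 were lower and 3 not called, with a median of -0.44, where 33% of all tested genes were called lower. FOXM1 (-0.84) and MYBL2, the gene of B-MYB (-0.74), had the largest changes (limma adjusted p = 2e-09 and 9.08e-10). The MuvB subunits LIN9 and RBBP4 changed by -0.70 and -0.44 (limma adjusted p = 3.73e-07 and 7.87e-08).

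**Figure D5:**
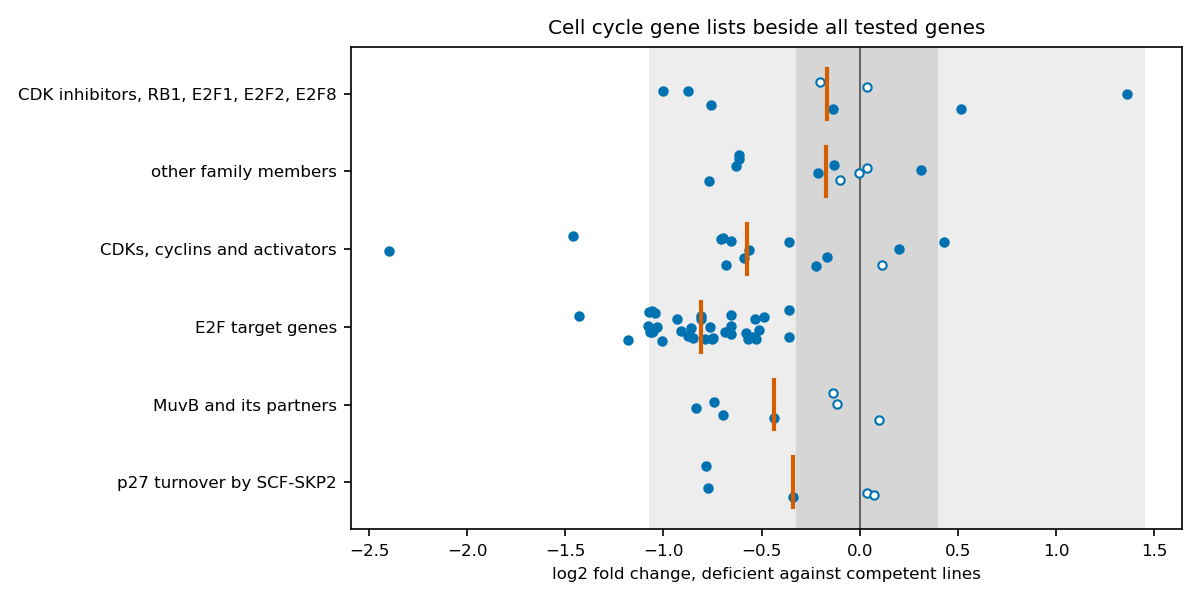
Deficient against competent lines, as a log2 fold change, for each tested gene in 6 groups (filled where called, orange bar for the median), with shading for the middle 50% and 90% of all tested genes and a line at their median. All 36 E2F target genes lie below 0, and CDKN1A at 1.36 is the highest point of its group.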

How the data were processed

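Total RNA of 12 libraries (4 lines, 3 each) was sequenced. According to the study's methods and the submitters' processing notes, the authors used cutadapt for trimming, STAR for mapping to GRCh38, featureCounts for gene counts and DESeq2 for size factors, by which counts were divided. What they deposited is thus a signal of scaled counts. Strand setting and annotation release are not given in the sources used here. The table held 63086 genes, 1 line without a gene and 4 columns with line means (both left out). Dividing by each library's step gave whole reads for 100% of positive values (tolerance 0.01 reads), which gave the depth. Replicate 3 of KO 2 has a step too near 1 to show scaling, so count tests used the other 11 libraries. Coordinates are of GENCODE v44 on GRCh38, which held 99.1% of the gene IDs.

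limma (3.58.1, R 4.3.3) was run on log2(value + 1) for 15987 genes with a mean of at least 10 (lmFit on 4 line means, eBayes with trend, two-sided, Benjamini-Hochberg over all tested genes, threshold 0.05), so fold changes of low genes are understated. Groups came from the sample titles. The titles and the study call the libraries biological replicates, with no detail of their cultures, so p-values measure the spread between these libraries. The test was tried on simulated data. The recovery limit was set anew, for genes with a mean of at least 100, after low-count genes had been recovered less often than first required. Alternatives were edgeR (4.0.16), DESeq2 (1.42.0), other scalings, pseudocounts and filters, a replicate block, the lines of a contrast alone and each library left out. Genes and lists were chosen with earlier results of these data known. Named from each list were the 2 highest and 2 lowest called changes between deficient and competent lines, and all neighbours. RBL1, TFDP1, CDK2, CDK4, CCND1, CCNE1 and LIG1 were added after their values were seen. Another gene list and 1 marker gene are not reported here.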

Additional observations from a re-analysis of the deposited data

Results flagged for a closer look

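For 4 of the 8 tested genes the change against WT differed between the KO lines, tested as KO 2 against KO 1 by limma. The difference of KO 2 from KO 1 was -0.92 on the log2 scale for E2F2 (adjusted p = 2.83e-07), -0.76 for E2F8 (adjusted p = 1.82e-05), -0.50 for CDKN1C (adjusted p = 0.00803) and -0.46 for E2F1 (adjusted p = 0.000449). For the 3 E2F genes both KO lines lay below WT and KO 2 lay lower, in 3 of 3 libraries. CDKN1C was above WT in KO 1 and near it in KO 2. At this threshold KO 2 against KO 1 called 38.2% of all tested genes. Groups of 3 libraries are too small for a test of single outlying libraries.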

How the results depend on the processing

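For the 8 tested genes in 7 comparisons, 1222 of 1280 recomputed values kept their direction and their side of the threshold, 25 passed it only under the alternative, 13 lost it and 20 changed sign, and 38 of the 56 results were kept under every alternative run. All 20 changes of sign concern values that were not called. After quantile normalization CDKN1C in KO 2 against WT was -0.196 and CDKN1A in KO 2 against KO 1 0.0347. In KO 1 against CRISPR Control E2F2 was -0.0578 and RB1 0.0093. E2F7, which is not one of the 8 genes, was -0.0015 there. CDKN1A in KO 2 against KO 1 was 0.0426 with equal library totals. RB1 in KO 1 against CRISPR Control was 0.0068 with equal totals, 0.0082 with TMM factors and 0.0032 in edgeR, and CDKN2C there was -0.0007 in DESeq2. With 1 library left out, values in KO 1 against CRISPR Control ranged from -0.0728 to 0.0726 for RB1, -0.0859 to 0.0749 for CDKN2C and -0.07 to 0.0594 for E2F2. For E2F7, outside the 8 genes, they ranged from -0.0106 to 0.1511. RB1 ranged from -0.024 to 0.1682 in KO 2 against WT and from -0.0147 to 0.0814 between deficient and competent lines, and CDKN1B from -0.1548 to 0.0032 in CRISPR Control against WT. The cause of these changes was not tested. Counts of called genes stayed within 1.5 times, except that 2 rather than 4 neighbours of CDKN2A were called with a minimum mean of 50. With equal totals, 60% rather than 49.3% of the genes called in KO 2 against WT were higher and 65.6% rather than 47.4% in KO 2 against KO 1, and the median of all genes in KO 2 against CRISPR Control was 0.107. Replicate numbers gave no clear pairing of the libraries. Only 2 of 18 pairs with the same number had a correlation of deviations over 0.1 (range -0.13 to 0.16), both between CRISPR Control and KO 2. Of 12 libraries, 6 correlated best with their own number. Such a check cannot exclude a weak pairing. With a replicate block 6, 6, 5, 4, 6, 4 and 6 of the 8 genes were called in the 7 comparisons, the same counts as without it, and TIMP1 changed by -1.18. The count tests and TMM factors left out KO 2 replicate 3, and edgeR called 10291 and DESeq2 10203 of 15952 genes between deficient and competent lines, against 10535 of 15987 by limma. Depth limits only the genes at or near 0 reads.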
